A study of Mus musculus with 11 samples.

Results

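The transcripts of 10 genes that encode subunits and feedback inhibitors of nuclear factor kappaB (NF-kappaB) were described in skin and small intestine. They were taken by symbol from the 45777 genes of the deposited expression table, and all 10 were found. The genes were *Nfkb1*, *Nfkb2*, *Relb*, *Bcl3*, *Nfkbia*, *Nfkbie*, *Nfkbid*, *Nfkbiz*, *Tnfaip3* and *Zc3h12a*. All mice were BALB/c, female or male, and were 8 to 10 weeks old when they received 62.5 mg of cream per day. The cream of the treated groups held 5% imiquimod (IMQ), which activates the RNA sensor TLR7 and is used to model psoriasis in mice. Control mice received Vaseline. The methods of the study name the IMQ cream as Aldara, so effects of IMQ and of its cream base cannot be told apart. The labels give the shaved back and the right ear as the treated sites and 5 to 8 days as the duration, whereas the methods of the study give a slightly shorter range of days and name the back alone. There were 3 vehicle and 3 IMQ libraries of skin (replicates 1 to 3 and 4 to 6) and 3 vehicle and 2 IMQ libraries of small intestine (replicates 7 to 9 and 10 to 11). The labels do not state which tissues came from one mouse or that each library was a separate animal, so p-values measure the spread between these libraries.

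NF-kappaB is a family of dimeric transcription factors that are held inactive in the cytoplasm by inhibitors of the IkappaB type. Toll-like receptors, the interleukin-1 receptor family and tumor necrosis factor receptors activate the IKK kinases, which mark the inhibitors for degradation and let the dimers enter the nucleus. The dimers then switch on the genes of their own inhibitors, so the response is limited by feedback. *Nfkb1* and *Nfkb2* encode precursors that are processed to DNA-binding subunits, and *Relb* encodes the partner subunit of the non-canonical branch. *Nfkbia* and *Nfkbie* encode the cytoplasmic inhibitors IkappaBalpha and IkappaBepsilon. *Bcl3*, *Nfkbid* and *Nfkbiz* encode nuclear IkappaB proteins, which bind NF-kappaB on DNA and modulate its target genes. In the epidermis, the nuclear protein IkappaBzeta from *Nfkbiz* is known as a mediator of interleukin-17 responses. *Tnfaip3* encodes the ubiquitin-editing enzyme A20, and *Zc3h12a* encodes Regnase-1, a ribonuclease that degrades inflammatory mRNAs.

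The promoters were examined first, since several of these genes are known targets of the factor that they regulate. RefSeq promoter windows on GRCm38.p6 were matched for 7 of the 10 genes, with 12 windows in all, and the 250 bases before each start were searched on both strands. The 10-base kappaB consensus was found in 7 of the 12 windows and in 5 of the 7 genes, against 3.9% of 32851 windows and 4.46% of 27025 genes in the whole RefSeq table. A looser pattern, GGG and CC separated by 5 bases of any kind, which includes the consensus, was found in all 12 windows, against 45.8% of all windows. The following windows show genes with a match and the 2 genes with the largest responses to IMQ in skin, written 5′ to 3′ on the strand of the gene, with each match to the kappaB consensus in capitals.
Nfkbia (chr12:55492648-55492897, minus strand): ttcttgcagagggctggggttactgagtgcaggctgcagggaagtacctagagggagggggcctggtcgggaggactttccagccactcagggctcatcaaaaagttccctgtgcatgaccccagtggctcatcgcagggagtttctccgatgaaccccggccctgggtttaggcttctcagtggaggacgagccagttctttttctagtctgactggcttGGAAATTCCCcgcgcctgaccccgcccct
Nfkbie (chr17:45555450-45555699, plus strand): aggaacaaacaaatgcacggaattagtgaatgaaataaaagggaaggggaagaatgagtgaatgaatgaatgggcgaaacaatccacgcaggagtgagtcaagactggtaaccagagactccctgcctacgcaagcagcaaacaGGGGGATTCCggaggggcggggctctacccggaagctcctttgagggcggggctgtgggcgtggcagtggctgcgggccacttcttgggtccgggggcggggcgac
Nfkbid (chr7:30422156-30422405, plus strand): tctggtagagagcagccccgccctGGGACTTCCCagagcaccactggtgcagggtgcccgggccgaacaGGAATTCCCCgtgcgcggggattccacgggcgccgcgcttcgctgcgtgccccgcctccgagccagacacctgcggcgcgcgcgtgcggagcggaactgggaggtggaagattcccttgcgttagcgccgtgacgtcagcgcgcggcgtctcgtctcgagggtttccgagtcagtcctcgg
Bcl3 (chr7:19822756-19823005, minus strand): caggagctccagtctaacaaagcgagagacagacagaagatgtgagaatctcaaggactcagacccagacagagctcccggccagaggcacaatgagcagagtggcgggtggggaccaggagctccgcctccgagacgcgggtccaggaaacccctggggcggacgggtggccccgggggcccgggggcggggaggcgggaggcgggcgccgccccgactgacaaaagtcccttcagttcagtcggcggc
Zc3h12a (chr4:125127882-125128131, minus strand): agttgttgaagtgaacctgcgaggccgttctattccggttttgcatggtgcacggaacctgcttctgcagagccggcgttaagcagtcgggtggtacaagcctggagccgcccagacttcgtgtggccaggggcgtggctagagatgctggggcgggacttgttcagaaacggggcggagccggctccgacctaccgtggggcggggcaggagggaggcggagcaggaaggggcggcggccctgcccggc
In the *Nfkbia* window, the match began 29 bases before the start and lay on the opposite strand. The *Nfkbie* match began 106 bases before the start, and the second of the 3 *Nfkbid* windows held matches at 226 and 181 bases. *Nfkb2* had matches in each of its 3 windows, which lie largely within annotated exons and are therefore not printed in full. They included GGGAATTCCC at 39 bases before the first of its starts and GGGACTTTCC at 225 bases before the last. One of the 2 *Tnfaip3* windows held GGGACACCCC at 125 bases and GGAAATCCCC at 12 bases. The windows of *Bcl3* and *Zc3h12a* held no match to the consensus, although *Bcl3* had 4 and *Zc3h12a* had 3 matches to the looser pattern, counted on both strands with overlaps. A match describes the letters of a window and was not tested as a binding site, and a window without a match says only that these letters are not within it. *Nfkb1*, *Relb* and *Nfkbiz* had no window in the table.

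All 10 genes are protein coding and lie at separate positions of GRCm38. *Relb* (chromosome 7, 19606217 to 19629438) and *Bcl3* (chromosome 7, 19808462 to 19822824) both lie on the minus strand of one chromosome, and *Nfkbid* lies on the same chromosome from 30421731 to 30428749. The longest gene is *Nfkb1* (chromosome 3, 135584655 to 135691969) and the shortest is *Nfkbia* (chromosome 12, 55489409 to 55492647). *Zc3h12a* lies on chromosome 4 from 125118414 to 125127881 and *Nfkbiz* on chromosome 16 from 55811375 to 55838954. The annotation places *Psd* and a long noncoding RNA on the opposite strand of *Nfkb2*, 2 antisense genes within *Bcl3*, and *Gm43430* within *Nfkb1* on the same strand. The sources used here do not state whether strand was used in counting, so reads of these overlapping genes cannot be told apart from those of *Nfkb2* and *Bcl3*, and reads of *Gm43430* share the strand of *Nfkb1*.

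The libraries had 44995414 to 58526384 counts, and the lowest count of any of the 10 genes in any library was 149. Keratinocyte markers summed to 4841 to 13364 FPKM (fragments scaled to transcript length and library size) in skin and to at most 1.42 in small intestine, and enterocyte markers summed to 7111 to 15353 FPKM in small intestine, so each library matched its labelled tissue. Skin vehicle replicate 2 stood apart. Its enterocyte markers summed to 152 FPKM, against 0.0979 and 0.163 in the other vehicle skin libraries, and its hair follicle markers to 9.88 against 497 and 856. The 3 IMQ skin libraries had 8.08 to 9.98 FPKM of hair follicle markers, so this control was at their level. Calls of the 10 genes are given with and without it, whereas counts over lists of markers or of other pathway genes are given with it only. The 10 pairs of libraries of one group all differed by more than sampling noise, with a chi-square statistic per degree of freedom of 34 to 231.

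The 10 transcripts summed to 129, 159 and 118 FPKM in vehicle skin and to 321, 285 and 288 FPKM in IMQ skin. In the small intestine the sums were 129, 146 and 137 FPKM with vehicle and 152 and 196 FPKM with IMQ. Thus all 3 IMQ skin libraries lay above every other library, and both IMQ libraries of the small intestine lay above their controls. The make-up of the sum also differed between groups. Within vehicle skin, *Nfkbia* contributed 34.5 ± 5.16% (SD, n = 3), *Nfkb1* 18.4 ± 2.51% and *Nfkb2* 11.3 ± 1.68%, whereas *Zc3h12a* contributed 6.44 ± 1.09%. In IMQ skin the share of *Zc3h12a* was 19.3 ± 0.84% (SD, n = 3), second to *Nfkbia* at 30.9 ± 3.86%. The small intestine had larger shares of *Bcl3* and *Relb*, at 13.8 ± 3.19% and 13.5 ± 0.99% (SD, n = 3) with vehicle. *Nfkbid* had the lowest share in every group, at 1.03% to 1.36% on average.

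**Figure D1:**
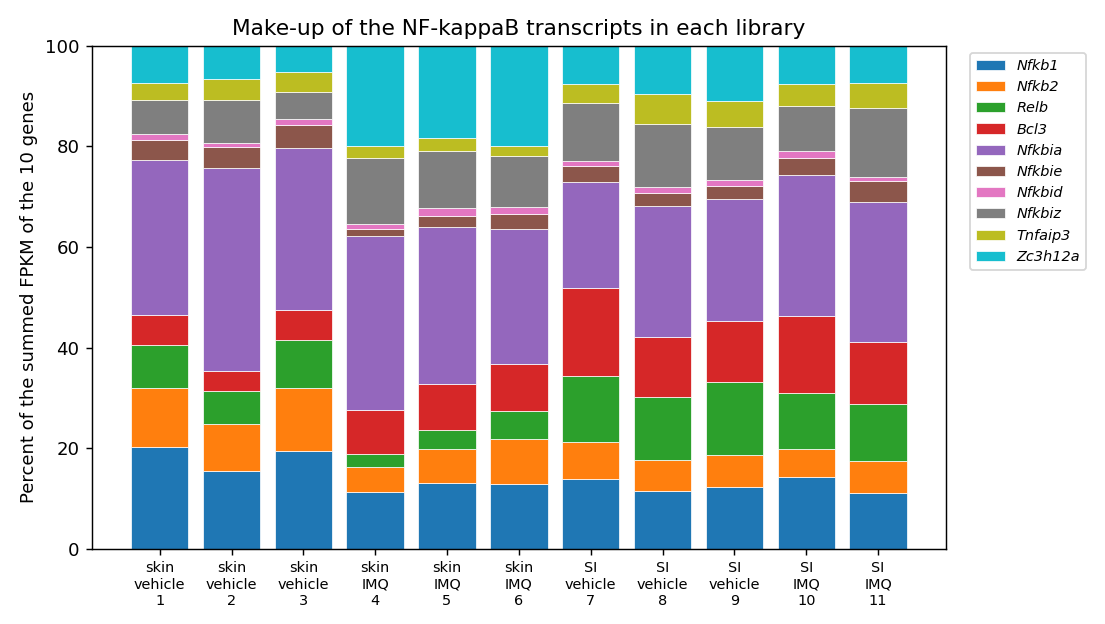
Percent of the summed FPKM of the 10 genes (y axis, 0 to 100) contributed by each gene in each of the 11 libraries (x axis, tissue with SI for small intestine, treatment and replicate number). The *Zc3h12a* segment reaches 18.4% to 19.8% in the 3 IMQ skin libraries and 5.27% to 10.9% in the others.

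The first comparison asked how topical IMQ cream changed these genes in the skin to which it was applied. The nuclear IkappaB genes *Bcl3*, *Nfkbiz* and *Nfkbid*, the ribonuclease gene *Zc3h12a* and the subunit gene *Nfkb1* were upregulated, by 1.55-fold (*Nfkb1*) to 6.76-fold (*Zc3h12a*). *Nfkbia*, *Nfkb2*, *Tnfaip3*, *Nfkbie* and *Relb* did not pass the test. Thus 5 of the 10 genes were called higher and 0 lower by the quasi-likelihood test of edgeR (threshold of 0.05 on the adjusted p), against 4.05% of 20512 genes called higher and 2.69% called lower (6.74% in all). The log2 fold changes of the 10 genes had a median of 0.82, against −0.01 for all genes tested. Normalized counts of IMQ and vehicle libraries did not overlap for 7 of the 10, all higher with IMQ, against 15.1% of all genes.

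Among the nuclear IkappaB genes, *Bcl3* had the tightest groups, with 7.77, 6.38 and 7.03 FPKM in vehicle skin and 27.8, 26.0 and 26.7 FPKM in IMQ skin. The lowest IMQ library was thus far above the highest vehicle library. Its log2 fold change was 1.98 with a standard error (SE) of 0.11 and an adjusted p of 7.80e-04. *Nfkbiz* was at 8.80, 13.7 and 6.37 FPKM with vehicle and at 42.0, 32.4 and 29.5 FPKM with IMQ. Its groups did not overlap, and the vehicle library nearest to the IMQ group was replicate 2. The log2 fold change of *Nfkbiz* was 1.92 (SE 0.34, adjusted p = 0.0236), and 2.35 (adjusted p = 0.00644) without vehicle replicate 2. *Nfkbid* was expressed at low levels, with 1.56, 1.38 and 1.23 FPKM in vehicle skin and 3.51, 4.52 and 4.07 FPKM in IMQ skin. These correspond to 149 to 188 and 371 to 495 counts, and the log2 fold change was 1.54 (SE 0.19, adjusted p = 0.00860).

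The largest response was that of *Zc3h12a*, which had 9.61, 10.5 and 6.22 FPKM in vehicle skin and 63.6, 52.3 and 57.1 FPKM in IMQ skin. Every IMQ library was several-fold above every vehicle library, and the log2 fold change was 2.76 (SE 0.24, adjusted p = 0.00321). *Tnfaip3*, the other enzyme that limits the pathway after activation, was at 4.31, 6.47 and 4.66 FPKM with vehicle and at 7.97, 7.26 and 5.81 FPKM with IMQ. The groups overlapped, since vehicle replicate 2 exceeded IMQ replicate 6. The log2 fold change of *Tnfaip3* was 0.49 (SE 0.23, adjusted p = 0.256), and 0.74 (adjusted p = 0.0521) without vehicle replicate 2.

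Of the subunits, *Nfkb1* was at 26.1, 24.6 and 22.9 FPKM with vehicle and at 36.3, 37.0 and 37.2 FPKM with IMQ, a small difference with little spread (log2 fold change 0.63, SE 0.11, adjusted p = 0.0234). *Nfkb2* had 15.2, 14.9 and 14.9 FPKM in vehicle skin and 16.0, 19.6 and 25.8 FPKM in IMQ skin. The groups did not overlap, but the IMQ libraries ranged widely, and the log2 fold change of 0.48 (SE 0.16) had an adjusted p of 0.135. *Relb* was at 11, 10.2 and 11.2 FPKM with vehicle and at 8.42, 10.6 and 15.8 FPKM with IMQ, so the IMQ libraries lay on both sides of the controls (log2 fold change 0.15, SE 0.21, adjusted p = 0.723).

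The cytoplasmic inhibitors differed from each other. *Nfkbia*, the most abundant of the 10 transcripts in every library, was at 39.9, 64.3 and 38.1 FPKM in vehicle skin and at 111, 89.3 and 77.4 FPKM in IMQ skin. The groups did not overlap, and vehicle replicate 2 was again the control nearest to the IMQ libraries. The log2 fold change of *Nfkbia* was 1.01 (SE 0.28, adjusted p = 0.0801), but it was 1.34 with an adjusted p of 0.0143 without vehicle replicate 2. DESeq2, the test that the study used, gave *Nfkbia* an adjusted p of 0.00910. Of the 6 edgeR fits with 1 library left out, *Nfkbia* was called in 1, with adjusted p of up to 0.234. It was called in 2 of 7 other settings, with adjusted p of up to 0.103. *Nfkbie* was at 5.02, 6.50 and 5.44 FPKM with vehicle and at 4.36, 5.93 and 8.63 FPKM with IMQ, with a log2 fold change of 0.19 (SE 0.25, adjusted p = 0.709).

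The 3 IMQ skin libraries did not vary alike across the genes. Replicate 4 was highest and replicate 6 lowest for *Nfkbia*, *Nfkbiz* and *Tnfaip3*. The reverse held for *Nfkb2*, *Relb* and *Nfkbie*, for which replicate 6 was highest and replicate 4 lowest. T cell markers summed to 26.5, 41.5 and 75.9 FPKM and B cell markers to 10.3, 11.7 and 21.1 FPKM in replicates 4, 5 and 6. Macrophage and monocyte (698, 755 and 941 FPKM) and smooth muscle (158, 190 and 379 FPKM) markers rose in the same order. So did the low sums of eosinophil and of goblet and Paneth cell markers. Keratinocyte markers ran in the opposite order, with sums of 13364, 12532 and 7980 FPKM, as did hair follicle markers. The remaining marker lists followed neither order. The part of these cells in the spread of either set of genes was not tested.

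**Figure D2:**
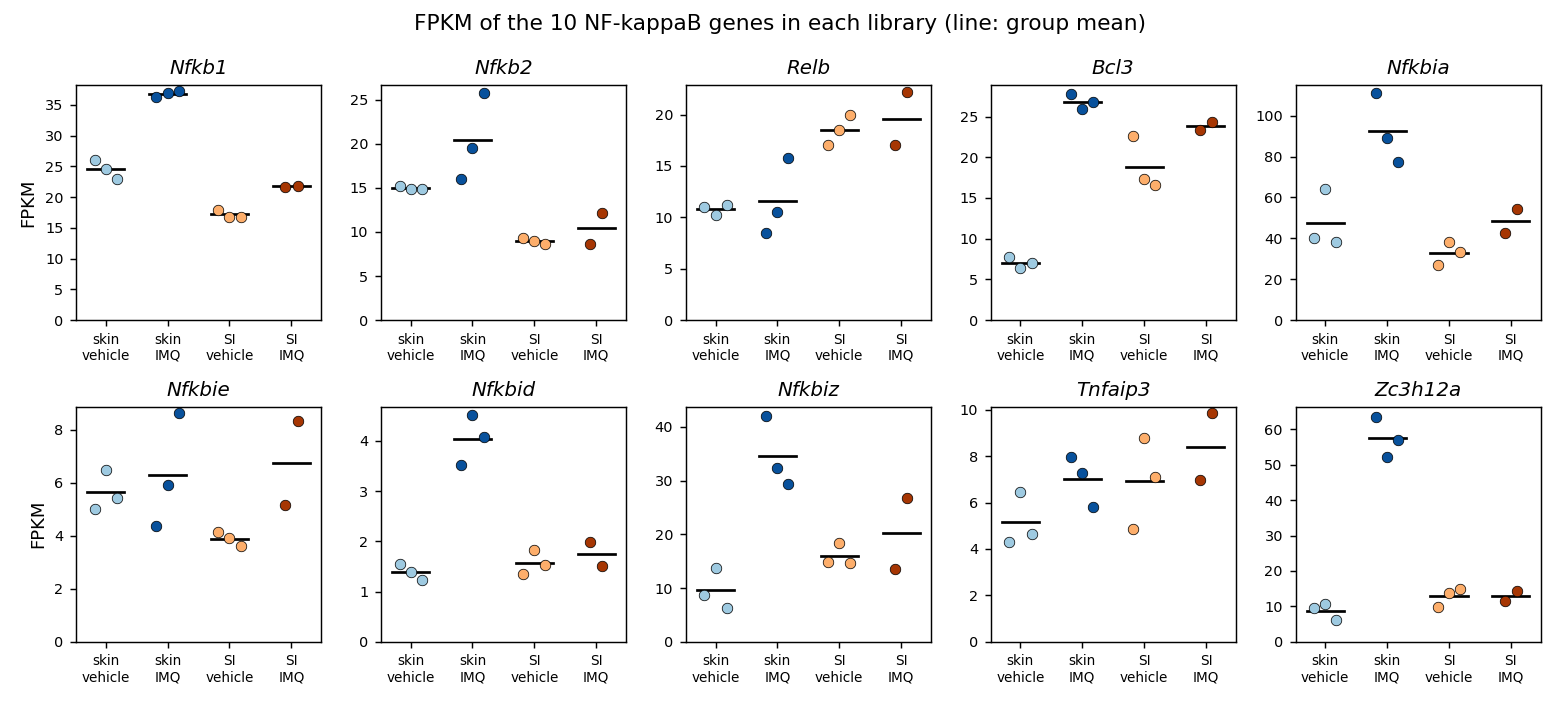
FPKM (y axis, linear, from 0) of each of the 10 genes in each library (points) by tissue and treatment (x axis, SI for small intestine), with the group mean as a line. The skin IMQ libraries lie above all other libraries for *Nfkb1*, *Nfkb2*, *Bcl3*, *Nfkbia*, *Nfkbid*, *Nfkbiz* and *Zc3h12a*, whereas *Relb* is higher in all small intestine libraries than in all skin libraries.

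Calls in skin depended on single libraries. *Bcl3* and *Zc3h12a* were called whichever library was left out, *Nfkbid* was lost without IMQ replicate 5 (adjusted p = 0.0542), and *Nfkb1* and *Nfkbiz* were called in 2 of 6 such fits, those without vehicle replicate 2 or 3. Calls among the studied genes thus numbered 2 without IMQ replicate 5 and 3 without vehicle replicate 1, IMQ replicate 4 or IMQ replicate 6. They numbered 5 without vehicle replicate 3 and 6 without vehicle replicate 2. Calls over all genes tested in skin moved in the same order. They were 258 of 20743 without IMQ replicate 5, 325 of 20720 without vehicle replicate 1 and 468 of 20797 without IMQ replicate 4. Without IMQ replicate 6, vehicle replicate 3 and vehicle replicate 2 they were 687 of 20738, 934 of 20706 and 2521 of 20752. With every skin library kept, they were 1382 of 20512.

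Markers of some cell types also differed between IMQ and vehicle skin. All 6 neutrophil markers tested were called higher in IMQ skin, and the list of 7 summed to 13.6 to 14.7 FPKM with vehicle and 7036 to 8588 FPKM with IMQ. Of 9 macrophage and monocyte markers, 5 were called higher, and their sum was 250 to 395 FPKM with vehicle and 698 to 941 FPKM with IMQ. None of the 8 T cell markers was called, and 3 of 5 B cell markers tested were higher, with sums of 1.33 to 2.47 and 10.3 to 21.1 FPKM. Of 8 keratinocyte markers 1 was called higher, as were 3 of 5 endothelial markers, while 2 of 6 hair follicle markers (for which vehicle replicate 2 was at the level of the IMQ libraries), 1 of 5 smooth muscle and 1 of 4 goblet and Paneth cell markers were lower. None of the tested eosinophil (2), skeletal muscle (6), adipocyte (6) or fibroblast (6) markers was called, and no enterocyte marker had a count in every skin library. Their part in the changes was not tested, and in whole tissue more cells of a type cannot be told apart from more RNA per cell.

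The second comparison asked how the same cream changed these genes in the small intestine, which was not treated directly. None of the 10 genes passed the edgeR test, against 2.77% of 19965 genes called higher and 0.17% called lower (2.95% in all). Their log2 fold changes were between 0.05 (*Zc3h12a*) and 0.85 (*Nfkbie*), with a median of 0.36 against −0.02 for all genes tested. At an unadjusted p under 0.05 there were 4, namely *Nfkb1*, *Nfkbia*, *Nfkbie* and *Nfkbiz*, against 12.3% of all genes. DESeq2 called 1, *Nfkbie*, with an adjusted p of 0.0308, against 1206 of 19965 genes called by DESeq2. Normalized counts did not overlap for 4 genes, *Nfkb1*, *Bcl3*, *Nfkbia* and *Nfkbie*, all higher with IMQ, against 15.1% of all genes.

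*Nfkbie* was at 4.13, 3.92 and 3.63 FPKM in the vehicle libraries and at 5.17 and 8.35 FPKM in the IMQ libraries. Both IMQ libraries exceeded the controls, but they differed from each other by more than the controls did, and the log2 fold change was 0.85 (SE 0.24, adjusted p = 0.159). *Nfkbia* was at 27.1, 38.0 and 33.3 FPKM with vehicle and at 42.8 and 54.3 FPKM with IMQ (log2 fold change 0.62, SE 0.18, adjusted p = 0.175). *Nfkb1* had the least spread, with 18.0, 16.8 and 16.8 FPKM with vehicle and 21.7 and 21.9 FPKM with IMQ (log2 fold change 0.39, SE 0.13, adjusted p = 0.239). *Nfkbiz* was at 14.8, 18.3 and 14.6 FPKM with vehicle and at 13.6 and 26.8 FPKM with IMQ, so only IMQ replicate 11 lay above the controls (log2 fold change 0.75, SE 0.29, adjusted p = 0.343). On log2(FPKM + 0.1) and log2(FPKM + 1) its difference was 0.27 and 0.26, since the FPKM of IMQ replicate 10 lay below all controls while its normalized count of 3584 lay among theirs (3223 to 3698).

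The remaining genes had log2 fold changes of 0.05 to 0.38. *Zc3h12a*, the most responsive gene in skin, was at 9.84, 13.9 and 15 FPKM with vehicle and at 11.4 and 14.4 FPKM with IMQ, within the control range (log2 fold change 0.05, SE 0.22, adjusted p = 0.966). *Bcl3* had 22.6, 17.4 and 16.5 FPKM with vehicle and 23.3 and 24.4 FPKM with IMQ, with both IMQ libraries above the controls (log2 fold change 0.38, SE 0.17, adjusted p = 0.436). *Nfkbid* was at 1.34, 1.82 and 1.53 FPKM with vehicle and at 1.98 and 1.5 FPKM with IMQ (log2 fold change 0.18, SE 0.24, adjusted p = 0.854). For *Nfkb2*, *Relb* and *Tnfaip3* the groups overlapped, with log2 fold changes of 0.28, 0.14 and 0.34 and adjusted p of 0.612 to 0.847.

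IMQ replicate 11 was higher than replicate 10 for 9 of the 10 genes, all except *Nfkbid*. With replicate 11 as the lone IMQ library, the log2 fold changes of *Nfkbie* and *Nfkbiz* were both 1.21. With replicate 10 alone they were 0.39 and 0.08. A lone library shows no spread of its own, so the calls of these fits are not given here. Among the markers, 6 of 9 macrophage and monocyte markers and 2 of 5 neutrophil markers tested were called higher. The macrophage and monocyte list summed to 142 to 209 FPKM with vehicle and 748 to 834 FPKM with IMQ, a range that overlapped that of IMQ skin, while the neutrophil list summed to 7.17 to 8.13 and 14.9 to 15.5 FPKM. Of 5 endothelial markers 1 was higher, and none of the tested markers of the other 11 lists was called. Their part in the values of the 10 genes was not tested.

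**Figure D3:**
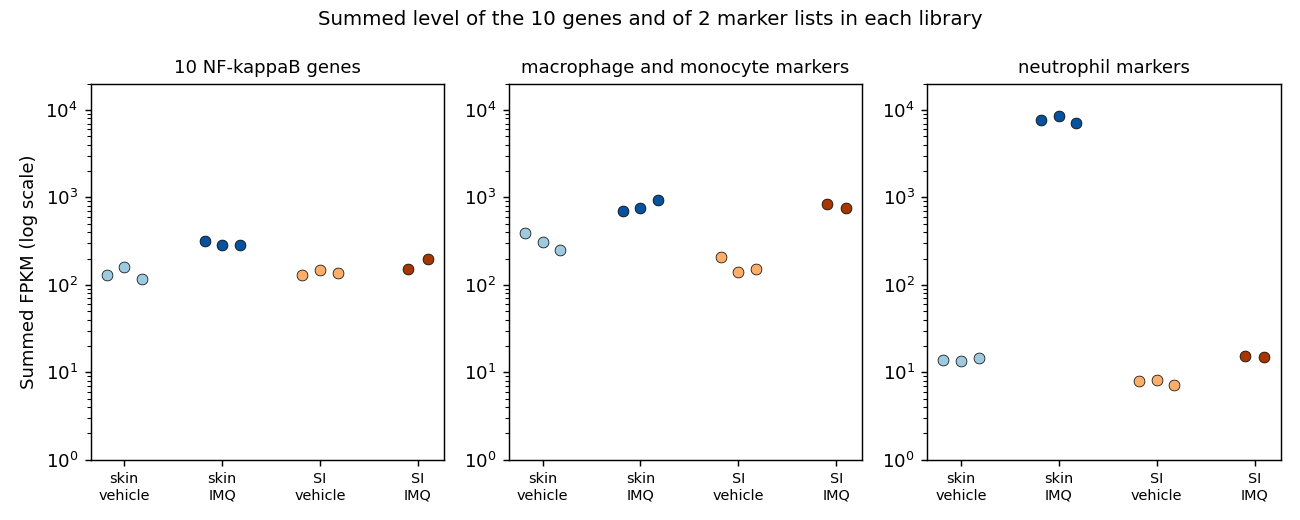
Summed FPKM (y axis, log scale) of the 10 genes (left), of the 9 macrophage and monocyte markers (middle) and of the 7 neutrophil markers (right) in each library (points) by tissue and treatment (x axis, SI for small intestine). The macrophage and monocyte sum is 698 to 941 FPKM in IMQ skin and 748 to 834 FPKM in IMQ small intestine. The sum of the 10 genes is 285 to 321 FPKM in IMQ skin and 152 to 196 FPKM in IMQ small intestine. A sum can rest on few of the markers of a list.

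The third comparison tested whether the response differed between the tissues, as the interaction of tissue and treatment in one fit of all 11 libraries. The response was smaller in the small intestine for *Zc3h12a* (difference of log2 fold changes −2.69, SE 0.37, adjusted p = 0.00538), *Bcl3* (−1.59, SE 0.21, adjusted p = 0.00483) and *Nfkbid* (−1.35, SE 0.28, adjusted p = 0.0348). These 3 genes compare with 0.856% of 18108 genes for which the difference was called in that direction and 1.7% in the other (2.55% in all). *Bcl3* and *Zc3h12a* were called whichever of the 11 libraries was left out, whereas *Nfkbid* was called in 2 of 11 such fits, those without vehicle skin replicate 2 or vehicle small intestine replicate 7 (adjusted p of 0.0246 to 0.132 over the 11), and it was not called without a filter on low counts (adjusted p = 0.0568). The difference was −1.15 (SE 0.52, adjusted p = 0.291) for *Nfkbiz* and 0.68 (SE 0.39, adjusted p = 0.433) for *Nfkbie*. For *Nfkb1*, *Nfkb2*, *Relb*, *Nfkbia* and *Tnfaip3* it was between −0.37 and 0.00 with SE of 0.17 to 0.39, so a moderate difference between the tissues was not detectable for these genes.

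**Figure D4:**
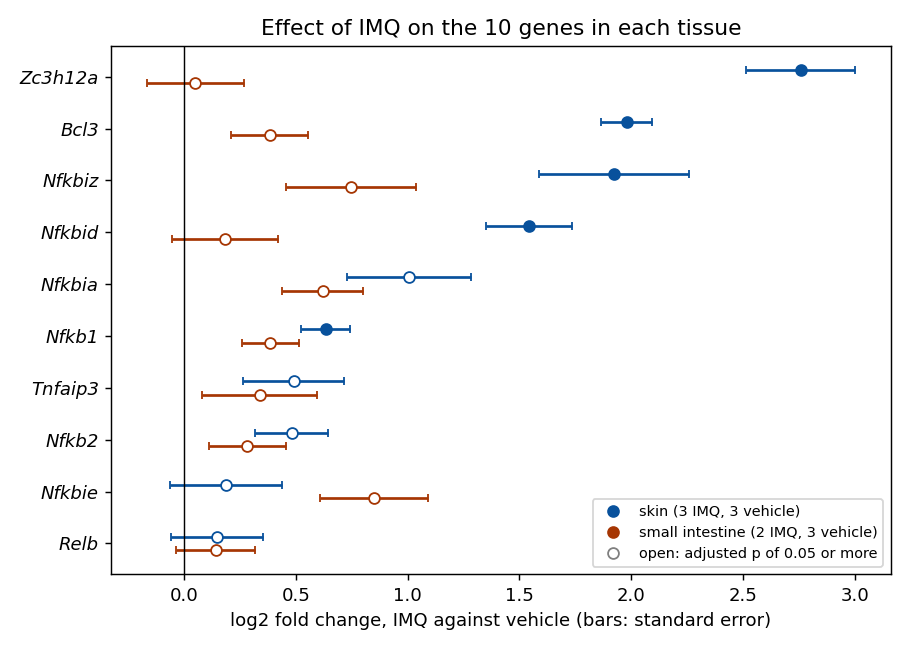
Log2 fold change of IMQ against vehicle (x axis, with bars of 1 standard error) for each of the 10 genes (y axis), in skin and in small intestine. Filled points passed an adjusted p of 0.05: *Zc3h12a*, *Bcl3*, *Nfkbiz*, *Nfkbid* and *Nfkb1* in skin and none in the small intestine.

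The tissues of vehicle-treated mice were compared to describe the levels without IMQ. On normalized counts, 6 of the 10 genes were higher in the small intestine, against 28.2% of 18108 genes higher and 28.8% lower (57% in all). They were *Bcl3* (log2 difference 1.87, SE 0.14, adjusted p = 1.16e-06), *Relb* (1.28, SE 0.20, adjusted p = 2.66e-04), *Nfkbiz* (1.12, SE 0.35, adjusted p = 0.0170), *Zc3h12a* (0.99, SE 0.24, adjusted p = 0.00469), *Tnfaip3* (0.86, SE 0.26, adjusted p = 0.0164) and *Nfkbid* (0.60, SE 0.19, adjusted p = 0.0186). *Nfkb1*, *Nfkb2*, *Nfkbia* and *Nfkbie* had differences of −0.27 to −0.06 and were not called. On log2(FPKM + 0.1) the median of all genes shifted from −0.01 to −0.40, and with it the split of all calls, from 49.5% to 27.7% higher. On that scale *Nfkb1* (−0.51, adjusted p = 3.40e-04) and *Nfkb2* (−0.74, adjusted p = 0.00356) were called lower in the small intestine, and *Tnfaip3* (0.40) and *Nfkbid* (0.16) were not called. *Bcl3*, *Relb*, *Nfkbiz* and *Zc3h12a* were higher on both scales. Normalized counts did not overlap between the tissues for 5 of the 10 genes that were higher in the small intestine, against 31.4% of all genes, and for *Nfkb2*, which was lower there, against 31.2%. Of the 6 calls, 3 were left without vehicle skin replicate 3, 4 without vehicle skin replicate 1 or vehicle small intestine replicate 8, 5 without vehicle small intestine replicate 9 and 6 without vehicle skin replicate 2. *Bcl3*, *Relb* and *Zc3h12a* were called in all 11 such fits.

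The levels over the 4 groups, in FPKM, fell into a few orders. *Nfkb1* and *Nfkb2* were highest in IMQ skin, followed by vehicle skin, IMQ small intestine and vehicle small intestine, with no overlap between neighbors except between the 2 intestinal groups for *Nfkb2*. *Bcl3*, *Nfkbiz*, *Nfkbid* and *Zc3h12a* were highest in IMQ skin and lowest in vehicle skin, with the intestinal groups between them. The ratio of the highest to the lowest mean was 6.56 for *Zc3h12a*, 3.8 for *Bcl3*, 3.60 for *Nfkbiz* and 2.90 for *Nfkbid*. Among these, IMQ skin was apart from IMQ small intestine for all 4, while the intestinal groups overlapped each other except for *Bcl3*, and vehicle skin overlapped vehicle small intestine for *Nfkbid* and *Zc3h12a*. *Nfkbia* was highest in IMQ skin and lowest in vehicle small intestine, with overlap between IMQ small intestine and vehicle skin. *Relb*, *Nfkbie* and *Tnfaip3* had their highest mean in IMQ small intestine, with ratios of 1.81, 1.74 and 1.63, and for *Tnfaip3* every pair of neighbors overlapped.

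Profiles over the 11 libraries were compared as centered log2(FPKM + 0.1) values. Among 18098 other genes, *Birc3*, an inhibitor of apoptosis and ubiquitin ligase of the pathway, lay closest to the mean profile of the 10 genes, with a mean absolute difference of 0.08. It was followed by *Tnfrsf13b* (0.11), *Gpx1* (0.12), *Tlr6* (0.12) and *Ly9* (0.17), against a median of 0.52 over all candidates. *Birc3* was at 12.5, 15.3 and 10.0 FPKM in vehicle skin, 25.3, 28.5 and 26.2 FPKM in IMQ skin, 12.1, 15.1 and 15.7 FPKM in vehicle small intestine and 15 and 18.4 FPKM in IMQ small intestine. Of the 10 genes themselves, *Nfkbid* (0.22) and *Nfkb1* (0.24) were closest to the mean profile, and *Zc3h12a* (0.60) and *Relb* (0.56) were farthest. *Nfkb1* and *Nfkb2* were each other's nearest member (0.17), as were *Bcl3* and *Nfkbiz* (0.36) and *Relb* and *Tnfaip3* (0.37). These are descriptions over libraries that share their depth and tissue, and carry no test.

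The other genes of the pathway were followed in 9 lists. Over all genes tested in skin, 4.05% were called higher and 2.69% lower. In skin, 6 of 11 receptors upstream of the canonical branch were called higher (median log2 fold change 0.83), led by *Tlr7*, the receptor for IMQ (1.23, SE 0.28, adjusted p = 0.0482), and the tumor necrosis factor receptor gene *Tnfrsf1b* (1.19, SE 0.17, adjusted p = 0.0119). *Tlr7* was at 2.03, 1.46 and 0.989 FPKM with vehicle and 3.22, 3.98 and 2.91 FPKM with IMQ, and lost its call whichever library was left out. Of 20 receptor-proximal adaptors, 4 were higher, led by the adaptor of Toll-like receptors *Myd88* (0.94, SE 0.11, adjusted p = 0.00719) and the kinase gene *Irak4* (0.85, SE 0.15, adjusted p = 0.0223). None of the 11 genes of the IKK complex and related kinases was called in skin (median 0.02). Nor was any of the 3 other Rel and IkappaB genes (0.25) or of the 10 ligands and receptors of the non-canonical branch (0.41). Among 20 ubiquitin and RNA-decay regulators, 3 were higher, *Birc3* (1.08, SE 0.19, adjusted p = 0.0237) and the Regnase family genes *Zc3h12c* (1.66, SE 0.19, adjusted p = 0.00677) and *Zc3h12d* (1.34, SE 0.27, adjusted p = 0.0359).

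Downstream, 6 of 21 NF-kappaB target genes were higher in skin (median 1.03), with the largest log2 fold changes in *Lcn2*, the iron-binding protein lipocalin (5.22, SE 0.37, adjusted p = 0.00218), and the neutrophil chemokine *Cxcl1* (4.13, SE 0.26, adjusted p = 0.00129). *Lcn2* was at 4.90, 3.66 and 4.48 FPKM with vehicle and at 86.5, 152 and 235 FPKM with IMQ. Of the 4 tested genes that depend on IkappaBzeta, 3 were higher, led by *Cxcl5* (7.01, SE 0.74, adjusted p = 0.00499), which had 2 to 7 counts with vehicle and 158 to 664 counts with IMQ, and by *Lcn2*. Over the other settings the log2 fold change of *Cxcl5* in skin ranged from 2.49 to 7.07. Of 6 mRNAs known as targets of Regnase-1, 1 was higher, *Il6* (2.41, SE 0.40, adjusted p = 0.0200), at 13 to 24 counts with vehicle and 71 to 137 counts with IMQ. None of the tested genes of the 9 lists was called lower in skin, where 4.05% of all genes were called higher and 2.69% lower. *Tlr7* was the 1 named gene of these lists that was not called without vehicle replicate 2. *Irak4* was called in 2, *Zc3h12d* in 1, and *Tnfrsf1b* and *Il6* in 4 of 6 fits with 1 library omitted.

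In the small intestine the calls lay in fewer lists, and 2.77% of all genes tested were called higher and 0.17% lower. The kinase gene *Map3k8* was the 1 of 11 genes of the IKK list that was called (log2 fold change 3.19, SE 0.29, adjusted p = 0.00139), with 0.433, 0.597 and 0.798 FPKM with vehicle and 5.00 and 5.77 FPKM with IMQ. Of 20 adaptors, 3 were higher, led by *Irak3*, an inhibitor of Toll-like receptor signaling (2.32, SE 0.18, adjusted p = 6.66e-04), and *Card9*, an adaptor of C-type lectin receptors (1.82, SE 0.24, adjusted p = 0.00815). Of 11 receptors, 3 were higher, led by the nucleic acid receptors *Tlr9* (2.58, SE 0.21, adjusted p = 8.48e-04) and *Tlr7* (1.20, SE 0.19, adjusted p = 0.0185). Of 20 NF-kappaB target genes, 4 were higher, led by the cytokine gene *Il1b* (3.16, SE 0.38, adjusted p = 0.00519) and by *Cxcl1* (1.91, SE 0.37, adjusted p = 0.0437), which had 6 to 13 counts with vehicle and 37 to 38 with IMQ. Of the other 5 lists, no gene was called: they were the Rel and IkappaB genes (3 tested), the non-canonical branch (11), the ubiquitin and RNA-decay regulators (20), the genes that depend on IkappaBzeta (3) and the Regnase-1 targets (5). *Tlr7* and *Cxcl1* were called in 1 and 0 of 5 fits with 1 library omitted, and *Card9* was lost without IMQ replicate 10.

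The interaction was called in 6 genes of these lists, against 2.55% of 18108 genes (1.7% larger and 0.856% smaller in the small intestine). Called were 1 of 11 genes of the IKK list, 1 of 20 adaptors and 2 of 3 genes that depend on IkappaBzeta. Of 19 NF-kappaB target genes, 1 had a larger and 2 had a smaller response there, and *Lcn2* is in both of the last lists. No tested gene of the other lists was called. The response was larger in the small intestine for *Map3k8* (difference 2.61, SE 0.43, adjusted p = 0.0117), *Irak3* (1.53, SE 0.21, adjusted p = 0.00523) and the adhesion molecule gene *Icam1* (1.12, SE 0.22, adjusted p = 0.0280). It was smaller there for *Cxcl5* (−6.47, SE 0.92, adjusted p = 0.00598), *Lcn2* (−4.04, SE 0.49, adjusted p = 0.00318) and *Cxcl1* (−2.21, SE 0.44, adjusted p = 0.0270). The *Cxcl5* difference depended on the scale. It ranged from −6.53 to −2.31 over the other settings and was not called by limma on log2(FPKM + 1). *Lcn2* and *Cxcl5* were called whichever of the 11 libraries was left out, as was *Irak3*, while *Cxcl1* was called in 5 and *Icam1* in 4 of 11, and *Map3k8* was lost without IMQ replicate 11 of the small intestine.

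Between the vehicle tissues the lists were counted on normalized counts, on which 28.2% of all genes were called higher and 28.8% lower in the small intestine (57% in all). Of 20 ubiquitin and RNA-decay regulators 11 were higher and 5 lower, of 11 receptors 1 and 5, and of 20 adaptors 5 and 6, so the share called among the receptors and the adaptors was near that of all genes. The counts higher and lower were 4 and 2 of 11 in the IKK list, 1 and 2 of 3 other Rel and IkappaB genes, 3 and 2 of 10 in the non-canonical branch, 7 and 6 of 19 NF-kappaB target genes, 1 and 1 of 3 genes that depend on IkappaBzeta and 1 and 3 of 5 Regnase-1 targets. The split of each list was not counted on log2(FPKM + 0.1), the scale on which the share of higher calls over all genes was 27.7%.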

How the data were processed

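RNA of skin and small intestine was sequenced as 100-bp paired-end reads from TruSeq stranded libraries. Per the submitters' processing notes, bcl2fastq 2.20.0, Trimmomatic, HISAT2 2.1.0, StringTie 2.1.3b and mm10 were used. The authors deposited whole-number read counts without normalization, together with FPKM and TPM that the authors computed per gene. The tool that made the counts, the use of strand and the treatment of multiply mapped reads are not given in the sources used here. TPM was not used.

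Genes that had 1 or more counts in all libraries compared were normalized by relative log expression. They were tested with edgeR 4.0.16 (R 4.3.3) by quasi-likelihood F, and p-values were adjusted by Benjamini-Hochberg across every gene in the fit, with a threshold of 0.05. The study also left out genes with a zero count and used DESeq2. Each tissue was fitted alone, and the interaction and the tissues of vehicle mice were tested in one fit of all 11 libraries. The SE is the log2 fold change divided by the square root of F. Counts were of 149 or more for the 10 genes, so the spread between libraries, with a biological coefficient of variation of 0.245 in skin and 0.215 in small intestine, set the precision. On simulated counts the skin fit of 20090 genes recovered 74.5% of genes changed by 2 on the log2 scale and 21.6% of those changed by 1, and the small intestine fit of 19598 genes 74.5% and 34.7%. The interaction fit of 17804 genes recovered 74% and 6.19%. Unchanged genes were called as well: 7 in skin, 16 in small intestine and 7 for the interaction. Beside them, 70, 73 and 74 genes changed by 2 and 21, 34 and 6 genes changed by 1 were called.

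The alternatives were TMM normalization, DESeq2 1.42.0, filterByExpr, no filter, limma 3.58.1 on log2(FPKM + 0.1) and log2(FPKM + 1), one fit of all 11 libraries, and each library left out. The 10 genes, the 9 pathway lists and the 14 marker lists were chosen with earlier results of these data known. Named are all 10 genes, the 5 genes with the most similar profile, and from each pathway list the 2 largest rises and falls among called genes. Between the vehicle tissues the lists were counted and their genes were not named. Positions and promoters came from RefSeq (GRCm38) and overlapping genes and exons from GENCODE, with Python 3.11.15.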

Additional observations from a re-analysis of the deposited data

Results flagged for a closer look

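The response to IMQ differed between skin and small intestine in 3 of the 10 genes by the test of the interaction. Over all 18108 genes tested, 2.55% were called, of which those smaller in the small intestine made up 0.856% of all genes. The log2 fold change in the small intestine minus that in skin was −2.69 for *Zc3h12a*, −1.59 for *Bcl3* and −1.35 for *Nfkbid*. In the separate fits, *Zc3h12a* had log2 fold changes of 2.76 in skin and 0.05 in the small intestine, *Bcl3* 1.98 and 0.38, and *Nfkbid* 1.54 and 0.18. Without vehicle skin replicate 2 the differences were −2.91, −1.58 and −1.41, each called. *Nfkbid* was the least stable of the 3: it was called in 2 of 11 fits with 1 library left out and was not called without a filter on low counts. *Zc3h12a* and *Bcl3* were called in all 11. Neutrophil markers, among them *S100a8* and *S100a9*, summed to 7036 to 8588 FPKM in IMQ skin and 14.9 to 15.5 FPKM in IMQ small intestine. Such a sum can rest on few of the markers, and their part in the differences was not tested.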

How the results depend on the processing

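No paired analysis was possible because each library has a replicate number of its own and the labels do not say which tissues came from one mouse. Over all genes, DESeq2 called 3030 in skin (50.0% higher, against 60.1% of 1382 by edgeR), 1206 in small intestine (83.4% against 94.2% of 588) and 1281 for the interaction (against 462), and 1 of the 10 genes in small intestine. One fit of all 11 libraries gave 48.9% higher in skin. In skin, limma on log2(FPKM + 1) called 894 genes, and without a filter the interaction was called for 301, with 2 of the 10 genes (*Nfkbid* had an adjusted p of 0.0568). Leaving out each library gave 258 (without IMQ replicate 5) to 2521 (without vehicle replicate 2) genes in skin, 294 to 801 in small intestine, 144 to 1072 for the interaction and 2 to 6, 0 to 2, 2 to 3 and 3 to 6 of the 10 genes in skin, small intestine, interaction and vehicle tissues.

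Signs reversed only for genes that were not called. In skin these were *Relb* (−0.11 to 0.31 over the libraries left out) and *Nfkbie* (−0.075 to 0.38). In small intestine they were *Nfkb2* (−0.020 to 0.54), *Relb* (−0.12 to 0.37) and *Zc3h12a* (−0.19 to 0.27). For the interaction they were *Relb* (−0.28 to 0.26, and −0.0016 with filterByExpr), *Tnfaip3* (−0.49 to 0.15) and *Nfkb2* (−0.51 to 0.071). Between the vehicle tissues they were *Nfkb1* (−0.16 to 6.2e-04), *Nfkbia* (−0.29 to 0.25) and *Nfkbie* (−0.21 to 0.084). The causes were not tested. For the 10 genes counts were 149 or more, whereas pathway genes with few counts, such as *Cxcl1* in small intestine and *Cxcl5* in vehicle skin, also carry counting error.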
